A study of Mus musculus with 6 samples.

Results

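The genes described here encode the core and linker histones of the mouse. They were taken by name from the annotation of 54446 genes and number 76 in all. Of these, 69 carry names that begin with Hist1h, Hist2h, Hist3h or Hist4h and form the replication-dependent class. The other 7, H2afx, H2afz, H2afv, H2afy, H3f3a, H3f3b and H1f0, form the replacement class. The rule used names and no measured value, but it was set with earlier results of these data known. It left out 1 pseudogene name.

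RNA of CD8+ T cells from the spleen of C57BL/6 mice aged 8 weeks was sequenced in 6 libraries, 2 in each of 3 groups. The Unstimulated group held fresh cells. The Control group was cultured on plates coated with antibodies to CD3 and CD28 for 72 h without magnets, and the SMF group was cultured in the same way on magnets that gave a static magnetic field of 0.3 T. The cells were purified by removal of other cell types, and nothing states whether the libraries of a group came from different mice, so each p-value measures only the spread between these libraries. The headers of the deposited files place both SMF libraries in a dated folder of their own, whereas Unstimulated 1 shared a folder with Control 1 and Unstimulated 2 with Control 2. The folder and the magnetic field cannot be told apart.

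Each nucleosome winds DNA around an octamer of the core histones H2A, H2B, H3 and H4, and linker histone H1 binds where DNA enters and leaves it. Replication-dependent histone genes lie in clusters, mostly lack introns, and are transcribed in S phase to package newly copied DNA. Their messengers normally end just after a conserved stem-loop bound by SLBP instead of a poly(A) tail, whereas replacement variants such as H3.3 and H2A.Z are made throughout the cell cycle from polyadenylated messengers. T cells that leave quiescence after antigen receptor stimulation begin to divide.

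The stem-loop is shown first because it marks the class in sequence. The pattern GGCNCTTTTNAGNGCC was searched on the transcript strand of the GENCODE M21 transcripts (GRCm38), which held all 107 member transcripts. It was found in 42 of 69 replication-dependent genes, in 1 of 7 replacement genes, and in 4 of 141660 transcripts of other genes, so that 0.0346% of all transcripts held it. The bases below run 5′ to 3′ with the stem-loop in capitals.
Hist1h1c: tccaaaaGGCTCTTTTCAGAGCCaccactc
Hist1h2ao: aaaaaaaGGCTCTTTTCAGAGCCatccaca
Hist2h2aa2: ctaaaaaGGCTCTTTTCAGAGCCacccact
Hist2h2ac: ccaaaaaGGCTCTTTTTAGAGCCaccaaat
Hist1h2bm: acacaaaGGCTCTTTTCAGAGCCactaagc
Hist1h3c: aaaaaaaGGCTCTTTTAAGAGCCacctaag
Hist1h4c: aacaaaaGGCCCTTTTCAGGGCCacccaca
H2afx: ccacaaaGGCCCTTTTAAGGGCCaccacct

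Within the replication-dependent class the H4 genes differed in the stem: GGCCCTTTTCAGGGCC stood in 7 of them and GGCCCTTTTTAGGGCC in 2, whereas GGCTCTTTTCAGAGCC was the most frequent form elsewhere, in 26 genes of the H1, H2A, H2B and H3 types. By type, the pattern stood in 4 of 6 H1, 11 of 20 H2A, 10 of 18 H2B, 8 of 12 H3 and 9 of 13 H4 genes. The capitals of Hist1h2ao lie at chr13:21810898-21810913 on the + strand, those of Hist2h2ac at chr3:96220418-96220433 on the − strand and those of H2afx at chr9:44335240-44335255 on the + strand. In the 39 replication-dependent genes with the pattern, a single exon and a single annotated transcript, it began 24 to 61 bases (median 35) after the last coding base. The annotated transcript ended within 100 bases of the stem-loop in 21 of the 42 replication-dependent genes and further on in the other 21, up to 4884 bases away in Hist1h1d. A gene without a match lacks only these letters in its annotated transcript.

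Levels are given as FPKM, mapped fragments scaled to transcript length and library size, summed over the transcripts of a gene. Replication-dependent histone messengers were almost unmeasured in every group. The paper names a total RNA library kit and mentions no selection for poly(A) tails, and the reason for the low values was not tested. Of the 69 genes, 23 were listed at 0 in all 6 libraries, 19 were above 0 in a single library, 26 in 2 to 5 libraries, and 1, Hist1h1c, in all 6. The highest value anywhere was 15.1 FPKM, for Hist1h4b in Control 2. Only 10 genes reached a mean of 1 FPKM, the minimum for testing: Hist1h1c, Hist1h2ae, Hist1h2ao, Hist1h2ap, Hist1h3c, Hist1h4b, Hist2h2aa1, Hist2h2aa2, Hist2h2ac and Hist2h3b. The lowest of these had a mean of 1.21 FPKM, and the highest gene below the minimum, Hist2h2bb, had 0.773. That is 14.5% of the class, against 18.99% of 1285 other protein-coding genes with a single exon and 48.8% of 20559 with several exons. All 7 replacement genes were tested.

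The classes differed in the order of their summed levels. Replication-dependent genes together gave 45.2 and 27.5 FPKM in the Unstimulated libraries, 39.2 and 44.0 in Control, and 20.7 and 17.9 in SMF. Replacement genes together gave 214 and 201 FPKM in Unstimulated, 319 and 275 in Control, and 826 and 759 in SMF. Both SMF libraries were thus the lowest of the 6 for the first class and the highest for the second, with no overlap with either other group. The replacement sum exceeded the replication-dependent sum 4.73 and 7.30 times in Unstimulated, 8.14 and 6.25 times in Control, and 39.8 and 42.4 times in SMF. A sum depends on the length of the copy to which a shared read was assigned, and it is relative to the whole library. Protein-coding genes with several exons took 47.2 and 48.0% of all FPKM in Unstimulated, 46.7 and 48.6% in Control, and 67.7 and 67.2% in SMF, and the part of that difference in the sums was not tested.

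**Figure D1:**
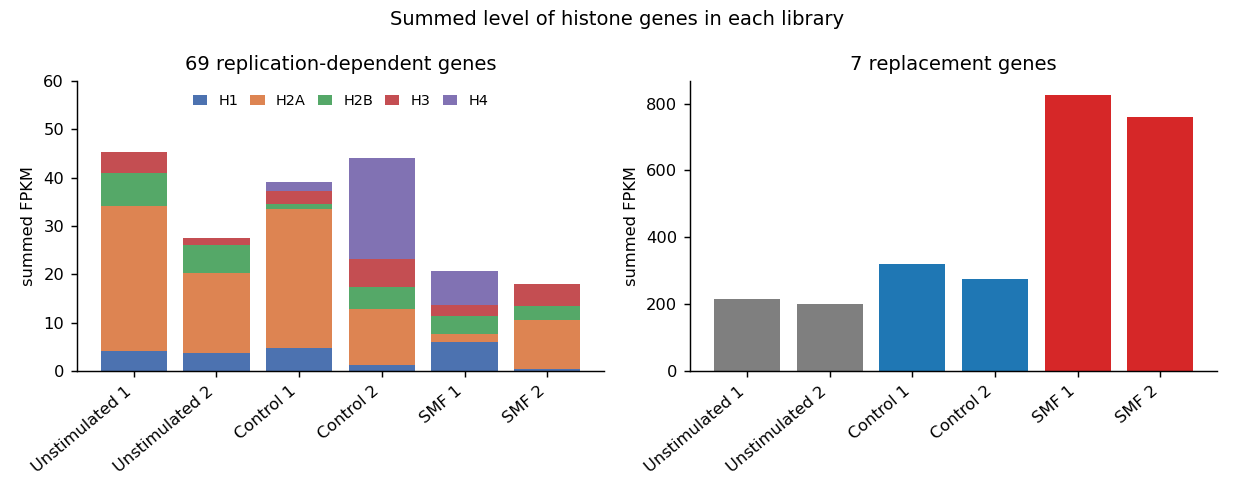
Summed FPKM in each of the 6 libraries for the 69 replication-dependent genes, stacked by histone type (left), and for the 7 replacement genes (right); the vertical scales differ. The replication-dependent bars reach at most 45.2 FPKM and are lowest in SMF, while the replacement bars reach 826 and 759 FPKM in SMF.

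Depth differed between the groups. Read bases assigned to annotated transcripts came to 67.4 and 132 Mb in Unstimulated, 64.4 and 172 Mb in Control, and 259 and 227 Mb in SMF, of which the replication-dependent class held 0.00496% at most. A value of 0 in a shallow library therefore sets a weaker limit than a value of 0 in an SMF library. Copies also resemble each other: a replication-dependent gene shared a median of 49.7% of its 50-base windows with another annotated gene, from 1.13% for H1 to 73.2% for H2A, against 6.14% for a replacement gene. Every window of Hist2h2aa2 was also in Hist2h2aa1, and 93.5% of those of Hist1h2ao were in Hist1h2ap, so values of the single copies are uncertain.

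Linker histones, which compact the nucleosome fibre, were represented by Hist1h1c. It was listed at 4.19 and 1.73 FPKM in Unstimulated, 4.81 and 0.615 in Control, and 1.14 and 0.401 in SMF. The SMF libraries were below both Unstimulated libraries but overlapped Control, and no comparison of this gene passed the test (SMF against Unstimulated: log2 difference −1.12, SE 0.81, adjusted p = 0.345). Hist1h1b was listed only in SMF 1, at 3.89 FPKM. Hist1h1e was listed at 1.90 FPKM in Unstimulated 2, 0.645 in Control 2 and 0.104 in SMF 1, and at 0 in the others.

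In the Hist1 cluster on chromosome 13, Hist1h2ao was listed at 0 in both Unstimulated libraries, at 6.80 and 5.77 FPKM in Control, and at 0 and 2.94 in SMF. Its near copy Hist1h2ap was listed at 0 and 0, 3.71 and 2.998, and 0 and 2.97 FPKM in the same order. Both Control libraries lay above both libraries of each other group for Hist1h2ao, and by a narrow margin for Hist1h2ap. Hist1h2ae was instead listed at 4.48 FPKM in Unstimulated 1 and 3.12 in SMF 2, and at 0 in the other 4 libraries.

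In the Hist2 cluster on chromosome 3, Hist2h2ac was listed at 11.2 and 2.40 FPKM in Unstimulated and at 0 in all 4 stimulated libraries. Hist2h2aa2 was listed at 11.1 and 3.72 FPKM in Unstimulated, 5.97 and 1.22 in Control, and 1.02 and 0 in SMF. Its copy Hist2h2aa1 was listed at 5.95 FPKM in Unstimulated 2 and 10.6 in Control 1, and at 0 elsewhere, so its replicates disagreed. Summed over its 10 genes, the Hist2 cluster gave 33.6 and 15.1 FPKM in Unstimulated, 16.6 and 2.65 in Control, and 1.11 and 3.63 in SMF, so Control overlapped both other groups while SMF lay below both Unstimulated libraries. The 56 Hist1 genes gave 9.76 and 9.09 FPKM in Unstimulated, 21.8 and 39.7 in Control, and 18.8 and 14.1 in SMF. All 4 stimulated libraries thus stood above both Unstimulated libraries for Hist1, and the Control libraries stood above the SMF libraries.

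None of the 18 H2B genes reached the minimum for testing. The highest were Hist2h2bb, Hist3h2ba and Hist2h2be. Hist2h2bb was listed at 3.69 FPKM in Unstimulated 1 and 0.944 in Control 2. Hist3h2ba was listed at 2.67 FPKM in Unstimulated 2, 1.13 in Control 2 and 0.785 in SMF 1. Hist2h2be stood at 2.16 and 1.14 FPKM in Unstimulated and at no more than 0.132 in any stimulated library. Among H3 genes, Hist1h3c was listed at 0 in Unstimulated, 2.84 and 3.29 FPKM in Control, and 1.08 and 0.813 in SMF. Its 3 groups did not overlap. Hist2h3b was listed only in Unstimulated 1, at 3.65 FPKM, and SMF 2, at 3.63, and Hist1h3g only in Control 2, at 1.77. No H4 gene was above 0 in either Unstimulated library or in SMF 2. The H4 genes summed to 1.86 FPKM in Control 1, 20.8 in Control 2 and 7.02 in SMF 1, and 15.1 of the 20.8 came from Hist1h4b. Hist1h4i was listed at 2.60 FPKM in Control 2 and 1.25 in SMF 1, and Hist1h4m at 0.964 in Control 1 and 2.40 in SMF 1.

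Each comparison was tested with limma on log2(FPKM + 1) over 14991 genes, and a gene was called when it differed at least 2-fold with an unadjusted p of at most 0.05, the thresholds of the study. Between Control and Unstimulated, 3 of the 10 tested replication-dependent genes were called higher (Hist1h2ao, Hist1h2ap and Hist1h3c), against 12.3% of all genes tested, and 1 lower (Hist2h2ac), against 12.6%. Each of these 4 was listed at 0 in a whole group, so no fold is given, and none passed adjustment over all genes (lowest adjusted p = 0.0779, Hist1h2ao). A gene as low as these could pass the minimum only through the group in which it was measured, so the counts describe which copies were listed and are not a measure of the class. The count called higher fell without Unstimulated 1 and without Unstimulated 2.

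Between SMF and Control no replication-dependent gene was called in either direction, against 12.5% of all genes called higher and 5.72% lower. In the same comparison, limma gave an unadjusted p of at most 0.05 for 0 of the 10, and fitting limma without the variance trend called 2 of them lower. Calls lower appeared without Control 1 and without SMF 2, where the median log2 difference of the 10 was −0.32 and −0.96. With all 6 libraries the gene nearest to a call was Hist1h2ao, with a log2 difference of −1.87 (SE 0.79, adjusted p = 0.244). With each library set to the same median the genes called over the whole table turned from 1868 higher and 857 lower to 877 and 1441, and 1 replication-dependent gene was called lower. Between SMF and Unstimulated, 2 were called lower (Hist2h2aa2 and Hist2h2ac), against 14.8% of all genes, and none higher, against 22.4%. With an equal sum over multi-exon coding genes the whole table went from 3351 higher and 2226 lower to 2309 and 3010. Hist2h2aa2 had a log2 difference of −2.41 (SE 0.84, adjusted p = 0.0844) and lost its call without any single library of these groups, in the range −3.09 to −1.73. Calls lower were lost without SMF 1 and without SMF 2, and calls higher appeared without SMF 1. With 1 library left out the median log2 difference of the 10 ranged from −0.96 to 0.48. In these comparisons 5 to 7 of the 10 genes had a group at 0, and their median was 0.04, −1.09 and −0.11 on the log2 scale in the order given. The median between SMF and Control went to −2.12 when 0.1 was added before the logarithm and to −0.42 when 5 was added.

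Genes on the facing strand carried far higher values than the H2A genes themselves. This set was chosen after its values had been seen. In 17 H2A genes the annotation places a short miRNA gene of 129 to 144 bases wholly inside the exon on the opposite strand, and in 16 of them it lies within the coding sequence. The one inside Hist1h2ao, Gm19658, spans chr13:21810712-21810849 on the − strand and is printed on its own strand because it showed the widest gap of the 17; it is the reverse complement of H2A coding bases.
Gm19658: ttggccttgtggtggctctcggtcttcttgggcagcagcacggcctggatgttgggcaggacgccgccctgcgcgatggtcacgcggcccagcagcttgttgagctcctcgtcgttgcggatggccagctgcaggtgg

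Gm19658 was listed at 13.8 and 19.2 FPKM in Unstimulated, 250 and 896 in Control, and 150 and 261 in SMF, where Hist1h2ao reached 6.80 at most. Gm44466, inside Hist1h2ap, was listed at 1.08 and 4.09, 74.0 and 136, and 43.3 and 33.6 FPKM in the same order. For both, every stimulated library was above both Unstimulated libraries. Gm44313, inside Hist3h2a, went the other way, with 486 and 455 FPKM in Unstimulated, 165 and 128 in Control, and 27.3 and 50.5 in SMF. Hist3h2a itself never exceeded 1.91.

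Summed over the 17, the facing genes gave 648 and 622 FPKM in Unstimulated, 905 and 1759 in Control, and 417 and 650 in SMF, against 28.7 and 14.9, 28.8 and 11.5, and 1.02 and 10.1 FPKM for the H2A genes. The facing gene was the higher of the pair in 11 and 9 of 17 pairs in Unstimulated, 13 and 15 in Control, and 14 and 15 in SMF. It was the lower in 1 and 2 pairs in Unstimulated and in none of the 17 in any stimulated library. Both Control libraries were above both Unstimulated libraries for 8 of the 17 facing genes and below for 3, where 24.8% and 26.6% of all genes tested were so placed. Both SMF libraries were below both Control libraries for 8 of 17 and above for 0, against 17.4% and 37.4% of all genes. These short genes resemble each other too, since all 17 share 50-base windows with another and 11 share every window.

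The library kit keeps the strand of the RNA, and the file headers show that reads were assigned with a forward-stranded option (--fr). Which strand the reads of these libraries follow was not given in the sources used here, and the part of the strand option in the low values of single-exon genes was not tested. Of the 69 replication-dependent genes, 64 have a single exon, as do H2afx and H1f0, whereas the other 5 replacement genes have several.

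**Figure D2:**
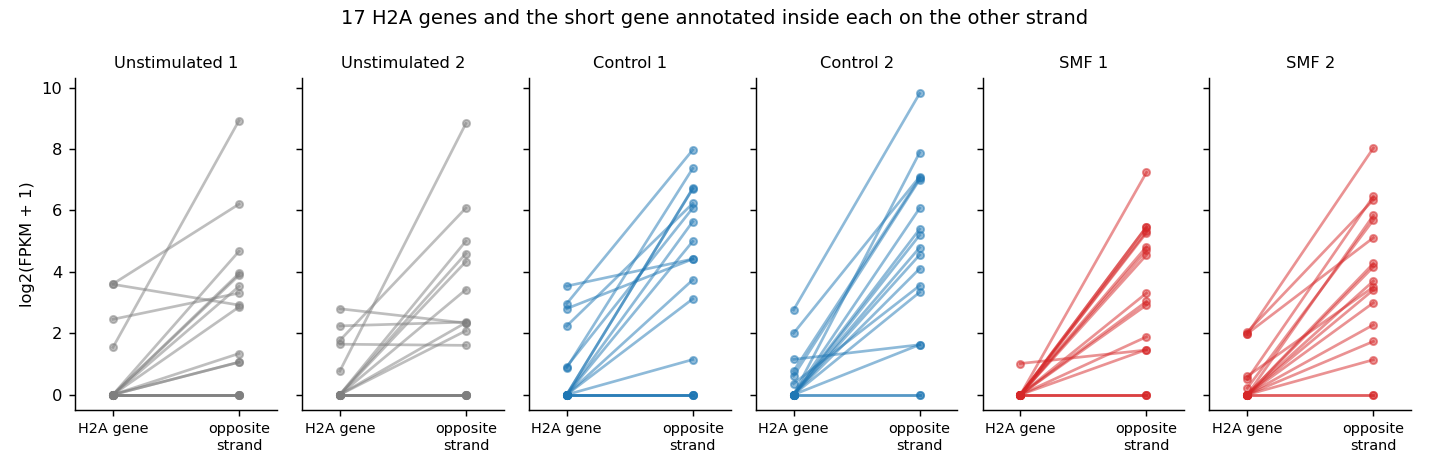
Level, as log2(FPKM + 1), of 17 H2A genes (left point of each line) and of the short gene annotated inside each on the other strand (right point), with 1 panel per library. The facing gene is higher in 9 to 15 of the 17 pairs in each library, and lower in at most 2.

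H3f3a and H3f3b encode the same protein, the H3 variant H3.3, which is deposited outside replication. H3f3b (chr11:116021912-116027962) was the highest histone gene by mean level. It was listed at 65.1 and 55.9 FPKM in Unstimulated, 148 and 72.1 in Control, and 384 and 381 in SMF. Both SMF libraries stood above the 4 others, and Control stood above Unstimulated with a wide spread of its own.

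H3f3b was called higher in SMF than in Control by 3.67-fold on the FPKM + 1 scale (log2 1.88, SE 0.37) but did not pass limma's adjustment (adjusted p = 0.136). Against Unstimulated the difference was 6.25-fold (log2 2.64, SE 0.37, adjusted p = 0.00787). Control against Unstimulated was not called (log2 0.77, SE 0.37, adjusted p = 0.248), and the differences within shared folders were 1.18 and 0.36. Without Control 2 that comparison was called, at 1.28. Almost all of the SMF signal, 377 and 380 FPKM, was on H3f3b-201, the 1993-base transcript with 4 exons. In Control 1 that transcript was listed at 0 and the shorter H3f3b-203 and H3f3b-204 carried 49.1 and 99.2 FPKM.

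H3f3a (chr1:180800832-180813943) was listed at 25.4 and 43.6 FPKM in Unstimulated, 34.9 and 27.5 in Control, and 115 and 90.3 in SMF. Only SMF was separate. The SMF to Control difference was 3.22-fold (log2 1.69, SE 0.36, adjusted p = 0.140) and the SMF to Unstimulated log2 difference was 1.59 (SE 0.36, adjusted p = 0.0279). Control and Unstimulated differed by −0.10 (SE 0.36), with +0.44 in the first shared folder and −0.65 in the second. The 2841-base H3f3a-205 held most of the signal, at 88.2 and 68.6 FPKM in SMF against 14.8 to 30.1 in the other 4 libraries. H3f3a faces the gene Gm17275 over 638 bases. Gm17275 was listed at 1473 and 1511 FPKM in Unstimulated, 1445 and 1057 in Control, and 1171 and 1046 in SMF. Another facing gene, H3f3aos, never exceeded 4.72 FPKM. Their part in the values of H3f3a was not tested.

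H2afz encodes H2A.Z, a variant found around active and poised promoters. Its level was 35.6 and 48.2 FPKM in Unstimulated, 57.5 and 78.4 in Control, and 171 and 151 in SMF. The groups stood in that order without overlap. SMF against Control was called at 2.37-fold (log2 1.24, SE 0.30, adjusted p = 0.145), and SMF against Unstimulated passed adjustment at 3.81-fold (log2 1.93, SE 0.30, adjusted p = 0.0102). Control against Unstimulated was 0.68 (SE 0.30, adjusted p = 0.208), with 0.68 and 0.69 within the shared folders. The SMF libraries differed in transcripts, since H2afz-207, of 810 bases, held 83.3 FPKM in SMF 1 and 0 in every other library. H2afz-201 was listed at 26.3 and 40.9 FPKM in Unstimulated, 42.3 and 67.6 in Control, and 71.7 and 150 in SMF.

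The second H2A.Z gene, H2afv, was low and varied more within groups than between them. It was listed at 2.59 and 4.64 FPKM in Unstimulated, 2.496 and 6.89 in Control, and 10.1 and 1.70 in SMF, so that the highest and the lowest of the 6 values were both from SMF. No comparison passed the test, and the 95% interval of the SMF to Control difference ran from −1.95 to 2.07 on the log2 scale.

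H2afy encodes macroH2A1, a variant with a large globular domain after its histone fold. Its level was 76.5 and 45.4 FPKM in Unstimulated, 51.1 and 65.7 in Control, and 126 and 106 in SMF. SMF stood above both other groups, which overlapped. The SMF to Control difference, 1.98-fold (log2 0.99, SE 0.34, adjusted p = 0.196), fell just short of the fold threshold and passed it in TPM (1.13). Without Unstimulated 1, SMF against Unstimulated was also called, at 1.33 in place of 0.96. H2afy-201 carried 72.2 and 68.7 FPKM in SMF and 14.4 to 37.5 in the others. H2afy faces Gm47071, an antisense gene that was listed at 333 and 229 FPKM in Unstimulated, 168 and 114 in Control, and 77.3 and 62.8 in SMF. Gm47071 was thus lowest in SMF, where H2afy was highest, and its part in the values of H2afy was not tested.

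H2afx encodes H2A.X, which is phosphorylated next to DNA breaks, and it is the replacement gene with a stem-loop. It was listed at 6.96 and 3.21 FPKM in Unstimulated, 11.4 and 14.004 in Control, and 13.8 and 17.4 in SMF. All 4 stimulated libraries were above both Unstimulated libraries, and Control and SMF overlapped. Control against Unstimulated was called at 2.36-fold (log2 1.24, SE 0.46, adjusted p = 0.154), with 0.64 and 1.83 within the shared folders. This call was lost without Unstimulated 2 (0.78), without Control 1 (1.37) and without Control 2 (1.10). With the replicate number as a block within the shared folders it was also lost (1.24, unadjusted p = 0.115 in limma), as it was with a pseudocount of 5 (0.83), in TPM (1.19) and with an equal coding sum (1.13). SMF against Unstimulated was called at 1.51 (SE 0.46, adjusted p = 0.0612) and lost without SMF 1 (1.67), without SMF 2 (1.36) and with an equal coding sum (1.06). The 95% interval of the SMF to Control difference was −0.85 to 1.40. The short gene inside it on the other strand, Gm44335, was listed at 888 and 500 FPKM, 2873 and 2359, and 1246 and 928 in the order Unstimulated, Control and SMF, many times the level of H2afx in each library.

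H1f0 encodes the replacement linker histone H1.0, best known from cells that have stopped dividing. Its level was 1.83 and 0 FPKM in Unstimulated, 13.4 and 10.4 in Control, and 6.76 and 10.96 in SMF. Both stimulated groups stood above Unstimulated and overlapped each other. On the log2(FPKM + 1) scale Control exceeded Unstimulated by 2.93 (SE 0.64, adjusted p = 0.0450), with 2.34 and 3.51 within the shared folders, and SMF exceeded Unstimulated by 2.52 (SE 0.64, adjusted p = 0.0371). The second call was lost without SMF 2 (2.21, unadjusted p = 0.0683). The SMF to Control difference was −0.41, with a 95% interval of −1.96 to 1.15. H1f0 also faces an antisense gene over 163 bases, Gm49544, which was listed at 29.0 and 4.31, 122 and 76.1, and 20.8 and 28.2 FPKM.

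**Figure D3:**
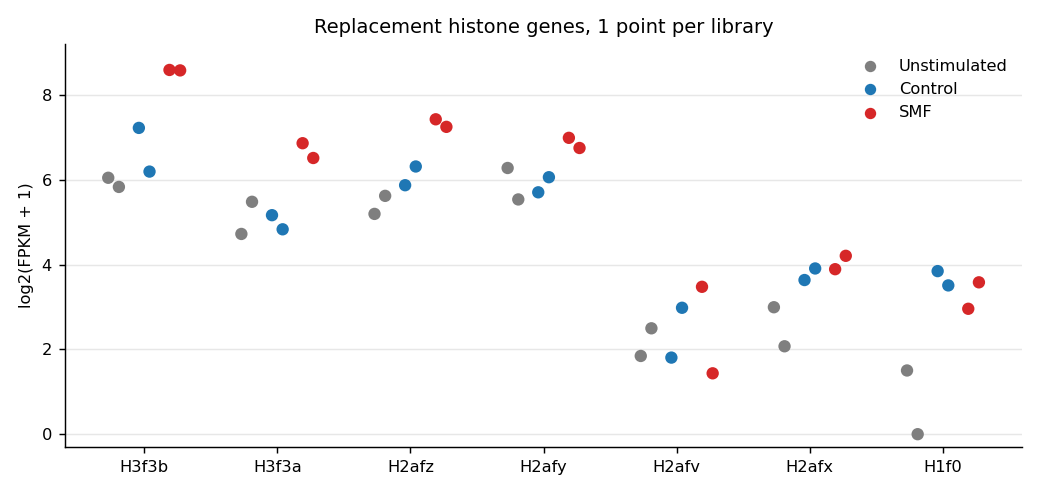
Level of each replacement gene, as log2(FPKM + 1), with 1 point per library coloured by group. H3f3b, H3f3a, H2afz and H2afy have both SMF libraries above the 4 others, whereas H2afx and H1f0 have all 4 stimulated libraries above Unstimulated. Over all genes tested, both SMF libraries stood above both Control libraries for 37.4% and above both Unstimulated libraries for 39.7%. Both Control libraries stood above both Unstimulated libraries for 24.8%.

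As a group, 2 of 7 replacement genes were called higher between Control and Unstimulated (H1f0 and H2afx) where 12.3% of all genes were, 3 of 7 between SMF and Control (H2afz, H3f3a and H3f3b) where 12.5% were, and 5 of 7 between SMF and Unstimulated where 22.4% were. None was called lower in the 3 comparisons. After adjustment over all genes, 1 was below 0.05 between Control and Unstimulated (8.48% of all genes), 0 between SMF and Control (0.0267%, or 4 genes), and 4 between SMF and Unstimulated (23.6%). Between SMF and Control limma gave 4 of the 7 an unadjusted p not above 0.05. The share of all genes at that p alone was not computed, so this count has nothing to be read against. Their median log2 difference was 0.68, 0.99 and 1.59, beside −0.05, 0.32 and 0.27 over all genes tested. The median of 0.99 between SMF and Control was 0.65 with each library set to the same median, 0.62 with an equal coding sum and 0.50 with the trend on transcript length removed.

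The shift of all genes between SMF and Control bears on these values. With each library set to the same median, H3f3b differed by 1.53, H3f3a by 1.35 and H2afz by 0.90 on the log2 scale, and H2afz was no longer called. With FPKM rescaled so that protein-coding genes of several exons had an equal sum in each library, the values were 1.51, 1.33 and 0.88, again without a call for H2afz. H3f3a and H3f3b kept theirs under both.

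**Figure D4:**
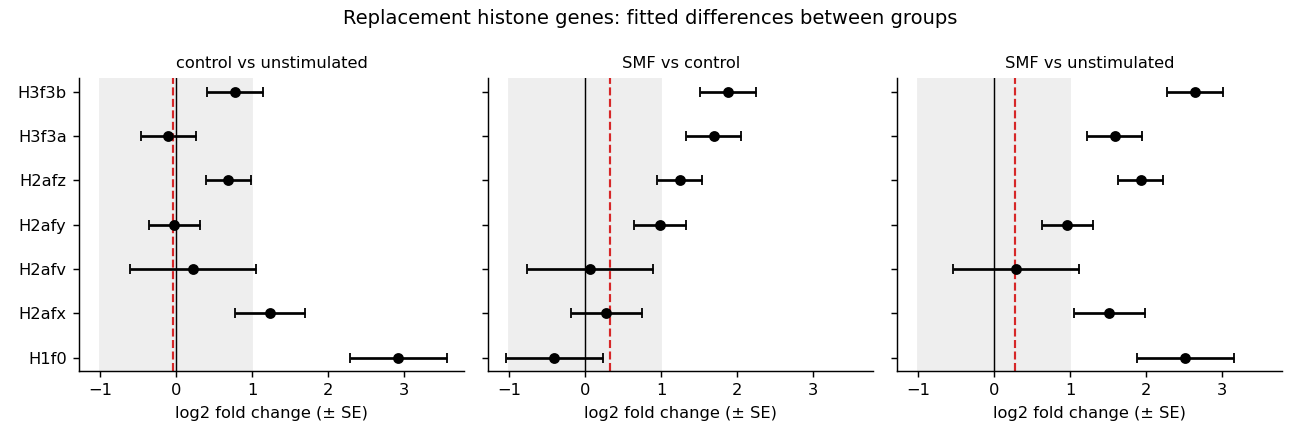
Fitted log2 fold change of each replacement gene in the 3 comparisons, with bars of 1 standard error. The shaded band spans changes under 2-fold and the dashed line is the median of all 14991 genes, which was 0.32 between SMF and Control; H3f3b, H3f3a and H2afz lie to the right of the band there.

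Most S phase genes rose in both stimulated groups. Of 14 S phase genes, 12 were called higher and 0 lower between Control and Unstimulated, against 12.3% and 12.6% of all genes, with a median log2 difference of 2.14. Between SMF and Control 5 were called higher, against 12.5%, and 0 lower (median 0.85), and between SMF and Unstimulated 13, against 22.4%, and 0 (median 2.92). Over all genes tested the medians were −0.05, 0.32 and 0.27 in these comparisons. No rescaled values are given for this list or the later ones. By CFSE labelling, the paper reports a comparable ratio of cycling cells with and without the field. Pcna, the sliding clamp of replication, was listed at 32.1 and 39.3 FPKM in Unstimulated, 71.2 and 107 in Control, and 235 and 239 in SMF. Top2a, a topoisomerase of dividing cells, was listed at 0.337 and 9.97, 143 and 112, and 213 and 210 FPKM. The 3 groups did not overlap for either gene. Mcm7, a subunit of the replicative helicase, was not called between Control and Unstimulated (0.53), and Ccna2, which encodes cyclin A2, was (1.46). The median of the 14 genes was 8.31 and 7.24 FPKM in Unstimulated, 50.4 and 50.7 in Control, and 89.4 and 86.6 in SMF, while the median of the 69 replication-dependent histone genes was 0 in all 6 libraries.

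**Figure D5:**
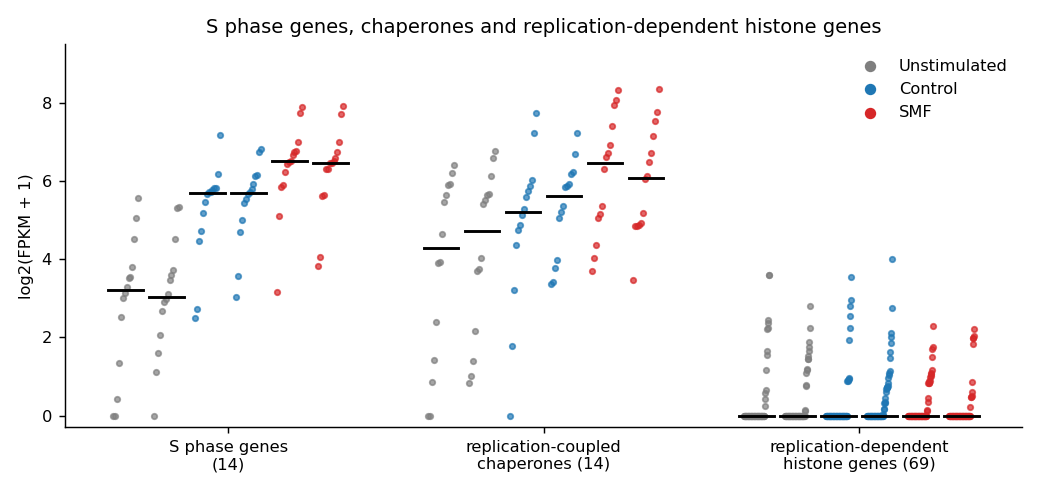
Level, as log2(FPKM + 1), of 14 S phase genes, 14 chaperones that act with replication, and the 69 replication-dependent histone genes, with 1 column of points per library and a black bar at its median. The S phase medians are lowest in Unstimulated and highest in SMF, and the histone medians are 0 in all 6 libraries.

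Chaperones that act on new histones around replication bind either H3 and H4 or H2A and H2B. Of 14, 7 were called higher between Control and Unstimulated, against 12.3% of all genes, 6 between SMF and Control, against 12.5%, and 9 between SMF and Unstimulated, against 22.4%, with medians of 1.24, 1.10 and 2.49. Nap1l1, which binds H2A and H2B, was listed at 42.9 and 68.9 FPKM in Unstimulated, 147 and 150 in Control, and 317 and 324 in SMF. The FACT subunit Ssrp1 was called higher between Control and Unstimulated (1.42), and its partner Supt16 was not (−0.69). Rbbp7, a histone-binding subunit, was called higher between SMF and Control (log2 1.998). Asf1a, an H3 and H4 chaperone, was called lower between SMF and Unstimulated (−1.11), against the majority of the list, while its paralogue Asf1b went from 0 and 1.65 FPKM in Unstimulated to 32.4 and 28.3 in SMF.

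Among 9 genes that act in histone gene transcription, 4 were called higher and 1 lower between Control and Unstimulated, against 12.3% and 12.6% of all genes. Between SMF and Control 1 was called higher, near the 12.5% of all genes, and between SMF and Unstimulated 5 were called higher and 1 lower, against 22.4% and 14.8% (medians 0.81, 0.74 and 2.14). Cdk2, the kinase that phosphorylates the histone gene coactivator NPAT, was listed at 8.07 and 3.04 FPKM in Unstimulated, 17.3 and 12.2 in Control, and 35.3 and 31.6 in SMF. Ccne1, which encodes its partner cyclin E1, was the gene called lower, from 148 and 83.4 FPKM in Unstimulated to 22.8 and 25.5 in Control and 32.3 and 51.95 in SMF. Ccne2, which encodes cyclin E2, was not called in any comparison. Casp8ap2, which encodes the histone locus body protein FLASH, was called between SMF and Control (1.66), with 38.3 and 12.8 FPKM in the SMF libraries. Npat itself was not called, at 4.92 and 4.91, 6.34 and 5.46, and 12.1 and 8.41 FPKM.

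Of 12 genes for stem-loop processing and decay, 11 were tested. Between Control and Unstimulated 2 were called higher, against 12.3% of all genes, between SMF and Control 3, against 12.5%, and between SMF and Unstimulated 4, against 22.4%, and none was called lower (medians 0.50, 0.47 and 0.90). Slbp, whose protein binds the stem-loop, was listed at 10.7 and 24.7 FPKM in Unstimulated, 48.9 and 47.7 in Control, and 62.7 and 72.1 in SMF. The Slbp difference was 1.504 between Control and Unstimulated (SE 0.42, adjusted p = 0.0823) and 1.97 between SMF and Unstimulated (adjusted p = 0.0234). The broader factors Srrt, Cpsf3 and Sympk, which also act on polyadenylated messengers, were not called in any comparison. Rnu7, the U7 small nuclear RNA, was above 0 only in SMF 1.

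Chaperones and remodellers of the replacement variants were called at shares near those of all genes. Of 13, 1 was called higher between Control and Unstimulated, where 12.3% of all genes were, 2 between SMF and Control, where 12.5% were, and 3 between SMF and Unstimulated, where 22.4% were, and none lower, with medians of −0.18, 0.60 and 0.68. Hira, which encodes the scaffold of the complex that deposits H3.3, was listed at 5.32 and 1.79 FPKM in Unstimulated, 4.46 and 4.61 in Control, and 26.6 and 23.7 in SMF. Atrx, whose protein works with DAXX at heterochromatin, was listed at 18.6 and 23.6, 19.9 and 21.8, and 53.9 and 55.2 FPKM. Both were called between SMF and Control, at 2.24 and 1.35, and the 2.24 of Hira was the highest difference of the list there. Dek, an H3.3 chaperone and the highest of the list, was not called, and Anp32e, which removes H2A.Z, was called between SMF and Unstimulated (2.53). Znhit1, a subunit of the complex that inserts H2A.Z, was called between Control and Unstimulated (1.23).

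Of 7 variant histone genes outside the name rule, 3 were tested. Cenpa, the centromeric H3, was listed at 3.76 and 3.09 FPKM in Unstimulated, 55.6 and 43.8 in Control, and 60.4 and 42.1 in SMF. It was called in both comparisons with Unstimulated (3.51 and 3.54) and not between SMF and Control (0.03). H2afj, an H2A gene, was listed at 11.5 to 29.0 FPKM and H1fx, a linker histone, at 0 to 4.54, and neither was called. H2afy2, the second macroH2A gene, was listed at 1.36 FPKM in Control 1 and 3.49 in SMF 2 and at 0 elsewhere.

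Markers of other cells moved with stimulation. The summed level of 4 B cell genes was 142 and 103 FPKM in Unstimulated, 23.3 and 7.63 in Control, and 4.50 and 2.43 in SMF, and 5 myeloid genes summed to 126 and 150, 47.0 and 53.8, and 47.5 and 51.4 FPKM, with 1 of them at 0 in all 6 libraries. Most of the stimulated myeloid sum was Csf1r, at 68.5 and 63.9, 47.0 and 53.8, and 41.1 and 50.4 FPKM, which was not called. Lyz2 went from 42.4 and 74.0 FPKM in Unstimulated to 0 in Control and SMF. Itgam and Cd68 were also called lower between Control and Unstimulated. Cd68 was listed at 0 in Control and at 6.4 and 0.892 FPKM in SMF. It was called higher between SMF and Control (log2 1.91) and not called between SMF and Unstimulated. The 5 genes of CD8+ T cells, Cd3d, Cd3e, Cd3g, Cd8a and Cd8b1, summed to 521 and 632, 271 and 441, and 748 and 629 FPKM, and Cd4 never exceeded 4.68. Cd8a and Cd8b1 were called lower between Control and Unstimulated (log2 −1.08 and −1.31). Cd8a and Cd3d were called higher between SMF and Control (2.01 and 1.40), and Cd8b1 was not (0.24). Cd3e and Cd3g were not called in any comparison. Of 6 erythroid genes, 3 were at 0 in all 6 libraries and the sum fell between 1.51 and 21.8 FPKM. The part of other cells in the differences from Unstimulated was not tested, and in bulk RNA fewer cells of a type and less RNA per cell cannot be told apart.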

How the data were processed

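RNA was sequenced from 6 libraries of CD8+ T cells in 3 groups that were read from the sample labels. Culture time and antibodies came from the paper, and mouse age from the series' design text. Per the submitters' notes and the file headers, reads were trimmed (Trimmomatic 0.36), aligned (HISAT2) and quantified by StringTie 1.3.5 (--fr, annotated transcripts only, GENCODE M19, GRCm38). The deposited values were FPKM and TPM, which StringTie scales to library size and transcript length, and coverage, the mean read depth per base; they were stored as other text in an attribute column. A further deposited table had 3 value columns that match no sample and were not used. It had been assumed as the source of gene values in the test plan.

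FPKM was summed per gene. The 14991 genes whose mean reached 1 FPKM were fitted with limma 3.58.1 (R 4.3.3) on log2(FPKM + 1), all 6 libraries in 3 groups, without covariates. Adjusted p-values are Benjamini-Hochberg values over all genes tested. Depth is given as read bases, coverage times transcript length, since no read counts were used here. Named genes were all replacement members, the 3 highest of each type, members with an adjusted p under 0.05, the 3 largest rises and falls of each comparison, and in each pathway list the 4 highest and any called against the majority. In the pathway lists Hira, Asf1b, Npat and Rnu7 were named in addition, outside this rule. Members and lists were chosen with earlier results of these data known. Alternatives covered the pseudocount, the filter, TPM, 2 scalings, a length trend, the variance trend, a replicate block and each library left out.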

Additional observations from a re-analysis of the deposited data

How the results depend on the processing

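Of the 12 median differences and counts of calls examined in the alternatives, those given here moved by more than the spread between replicates or by over 1.5 times, and the cause was not tested unless the alternative's construction shows it. The count called higher between Control and Unstimulated was 1 with a pseudocount of 5, and the count called lower was 3 without the filter, which admits 46 genes. Between SMF and Control the count called lower was 1 with a single median per library, 1 with an equal coding sum and 2 without the variance trend. Their median there was −2.12 with a pseudocount of 0.1, −0.42 with 5, −0.10 without the filter, −1.32 in TPM and −1.43 with a single median. Between SMF and Unstimulated the count called higher was 1 with a pseudocount of 0.1, the count called lower was 4 without the filter, and the median was −0.36 with a single median, −0.32 with an equal coding sum and 0.12 with the length trend removed. The replacement median kept its sign under each alternative run. Between SMF and Control it was 0.65 with a single median, 0.62 with an equal coding sum and 0.50 with the length trend removed. Between SMF and Unstimulated it was 1.33, 1.08 and 1.24 under these, 1.23 with a pseudocount of 5 and 1.76 with a filter of 5 FPKM.

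With 1 library left out, the lone library was assumed to vary like the others, and replication-dependent counts of calls changed in each comparison. Replication-dependent medians ranged over −1.17 to 0.50, −1.11 to −0.32 and −0.96 to 0.48 in the comparisons Control against Unstimulated, SMF against Control and SMF against Unstimulated. Replacement medians ranged over 0.46 to 0.81, 0.81 to 1.16 and 1.67 to 1.77. Signs turned without a call for H2afy between Control and Unstimulated (0.063 with a single median, 0.012 without the length trend, −0.40 to 0.35 with a library left out), for H3f3a there (−0.48 to 0.28), for H2afv between SMF and Control (−0.28, −0.22 and −0.20 under the scalings and the length trend, −0.96 to 1.08 with a library left out) and for H2afx between SMF and Control (−0.065 and −0.066 under the scalings).

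Unstimulated and Control libraries of the same number shared a dated folder, and SMF libraries shared none with them. Deviations from group means correlated at 0.10, 0.03 and 0.02 over all genes for Unstimulated with Control, Unstimulated with SMF and Control with SMF. With a replicate block the counts stayed at 3 and 1, 0 and 0, and 0 and 2, higher and lower in each comparison, and the H2afx call between Control and Unstimulated was lost (1.24, unadjusted p = 0.0525 in limma). The block within folders left the counts at 3 and 1. The depth of the Unstimulated 1 and Control 1 libraries limits what a listed 0 shows.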
